A study of Mus musculus with 6 samples.

Results

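Liver RNA of mice fed barley flour (BF) was compared with liver RNA of mice fed cellulose. The comparison covered 4919 genes of the 22180 genes in the series that had a probe set with exactly 1 gene symbol. A gene was included when the mean of the control and BF liver arrays was at least 6 on the log2 scale, and where several probe sets of a gene qualified, the brightest on average across all 6 arrays stood for it. Both groups were male C57BL/6J mice bought at 4 weeks of age and fed powdered high-fat diets, made with lard, in which fat gave 50% of the energy. Total dietary fiber was 5% in both diets and came from cellulose in the control diet and from flour of the hulless, β-glucan-rich barley "Beau Fiber" in the BF diet. Diets were given for 92 days and organs were taken after a fast of 8 h. For each group, equal amounts of RNA from 10 mice were pooled and hybridized to 1 Mouse Gene 2.0 ST array, so the series holds 6 arrays, 1 each for the control and BF groups in ileum, liver and epididymal adipose tissue. The flour also held starch, protein and lipid, so the effects of its fiber and of its other ingredients cannot be told apart.

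With 1 pooled array a group there was no replicate, no error and no test. Each difference below is the BF value minus the control value in log2 units, and a fold is given only where both arrays read at least 5. A gene was counted as higher above 1.3 fold (0.38 on the log2 scale) and as lower below 0.77 fold (-0.38). These counts describe the 2 arrays. Spread between the mice of a group was not measured.

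The liver takes up dietary fat and cholesterol remnants, makes cholesterol and fatty acids, and disposes of cholesterol as bile acids. Cholesterol synthesis is controlled mainly by SREBP2, a membrane-bound transcription factor that is held back when sterols are plentiful. Fatty acid synthesis is driven by SREBP1c and ChREBP, which respond to insulin and sugar. Hepatocytes also secrete the acute phase proteins of plasma, whose genes are switched on by IL-6 and IL-1, and they hold most of the body's drug-oxidizing and conjugating enzymes.

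The tissue label was borne out by its markers. Of 11 hepatocyte markers, 10 met the rule, and the other, Ass1, read 5.55 on the control array and 4.76 on the BF array. Apob, the gene of the main protein of very low-density lipoprotein, read 12.48 on the control array and 12.46 on the BF array, and Ttr, the transthyretin gene, read 12.61 and 12.67. The 10 markers had a median difference of 0.04 and none passed a threshold. None of the 9 pancreatic acinar markers met the rule, and the highest of them read 5.18. Of 7 adipocyte markers only Car3 met the rule, and it read 12.54 on the control array and 12.43 on the BF array. Of 7 intestinal epithelium markers 1 met it, and the highest read 9.36 and 9.25. Which cells gave the signal of either marker was not tested. In bulk liver RNA, fewer cells of a type and less RNA per cell cannot be told apart.

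Of the 4919 genes, 152 were higher on the BF array (3.09%) and 187 were lower (3.80%). More than 2-fold higher were 4 genes (0.0813%) and more than 2-fold lower were 18 genes (0.366%). The median difference was 0.00 and the central 95% of genes lay between -0.44 and 0.41. The lower side thus reached much further than the higher side, from -5.31 for Saa2 against 1.16 for Lyz2. The central 95% was -0.43 to 0.41 for genes with a mean of 6 to 7, widest at -0.51 to 0.50 for a mean of 9 to 10, and -0.42 to 0.34 for a mean of 10 and more. In the same 4919 genes, 2.24% were higher and 1.24% lower in the ileum, and 5.35% were higher and 6.02% lower in adipose tissue.

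**Figure D1:**
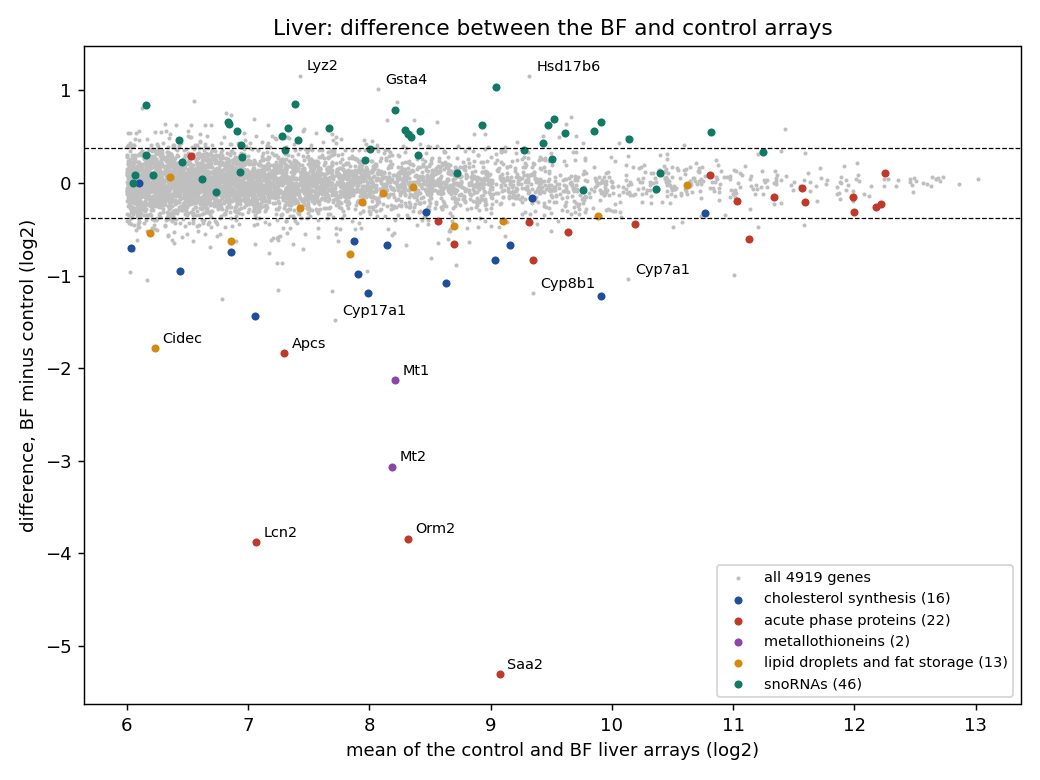
Difference between the BF and control liver arrays (log2, vertical axis) against the mean of both arrays (log2, horizontal axis) for 4919 genes, 1 point a gene, with 5 groups of genes in colour and dashed lines at 1.3 fold and 0.77 fold. The points furthest from 0 lie on the lower side, led by Saa2 at -5.31, while most snoRNA points lie above 0.

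Genes of cholesterol synthesis were lower on the BF array along most of the pathway. From acetyl-CoA to squalene, 5 of 5 genes that met the rule passed the lower threshold, with a median of -0.75. Between squalene and cholesterol 7 of 11 genes passed it, with a median of -0.67, and none of the 16 genes was above 0. Over all genes 3.80% passed the lower threshold and the median was 0.00. The same 5 and 11 genes had medians of 0.02 and -0.01 in the ileum, and of -0.15 and -0.47 in adipose tissue.

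Hmgcs1 encodes the cytosolic synthase that makes HMG-CoA, an early intermediate of the pathway. It read 10.52 on the control array and 9.30 on the BF array, 2.33-fold lower. Fdps, whose product joins isoprene units into farnesyl diphosphate, read 9.17 and 8.09, 2.12-fold lower. Pmvk and Mvd, the phosphomevalonate kinase and the mevalonate diphosphate decarboxylase, differed by -0.75 and -0.70. Fdft1, the squalene synthase at the branch to sterols, read 9.49 and 8.83, a difference of -0.67. The 5 differences ranged from -1.22 to -0.67.

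Sqle, the squalene epoxidase and a rate-limiting step of the sterol branch, had the largest difference of the pathway. It read 7.77 on the control array and 6.34 on the BF array, 2.71-fold lower. Lss, which closes the sterol ring to give lanosterol, read 6.92 and 5.97. Cyp51, Msmo1, Nsdhl and Hsd17b7 remove the methyl groups of lanosterol, and their differences were -0.67, -0.98, -0.83 and -0.63. Dhcr7, which makes cholesterol in the last step of one branch, read 8.58 and 7.39, 2.28-fold lower. The 4 genes of this stretch that stayed between the thresholds were Sc5d (-0.33), Tm7sf2 (-0.31), Ebp (-0.16) and Lbr (0.00). Tm7sf2 and Lbr both encode sterol reductases of the same step. Idi1 shares its probe set with another symbol and was not analysed here.

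Sterol control and transport genes moved less. Of 14 such genes 2 passed the lower threshold (14.3%, against 3.80% of all genes), none passed the higher threshold, and the median was -0.15. Srebf2, which encodes SREBP2, read 7.56 on the control array and 6.94 on the BF array, a difference of -0.61. Tmem97, a sterol-responsive membrane protein gene, differed by -0.41. Insig1, which retains SREBPs in the ER and is itself one of their targets, read 10.11 and 9.83, a difference of -0.28. The efflux genes Abcg5 and Abcg8, which send cholesterol into bile, differed by 0.13 and 0.07, and Abca1 by -0.19.

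The promoter of Hmgcs1 is shown because SREBPs act through short sterol response elements upstream of such genes. The sequence is from RefSeq (GRCm38.p6, chr13:119690151-119690350, plus strand, bases -200 to -1 before the annotated start), and capitals mark the letters TCACNCCAC.
Hmgcs1: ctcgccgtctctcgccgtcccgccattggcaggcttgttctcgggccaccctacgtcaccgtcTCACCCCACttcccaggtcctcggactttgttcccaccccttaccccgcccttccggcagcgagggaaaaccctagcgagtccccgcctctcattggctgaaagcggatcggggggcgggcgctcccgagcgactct
The match began at -137. Both strands of each 300-base promoter window were searched, and overlapping matches were kept. A gene with several windows counted once, by the window with most matches. Of the 16 genes of the pathway 13 had a window, and 1 of these 13, Hmgcs1, held TCACNCCAC, against 1.24% of all 32851 windows. The CCAAT box, bound by NF-Y beside many such elements, was in the windows of 13 of 13 genes, against 37.4% of all windows. The listed genes were counted by their best window and the background by single windows, so these shares are unlike measures. These are matches of letters, and binding was not measured.

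Fatty acid synthesis genes were also lower, by less. Of 19 genes 7 passed the lower threshold (36.8%, against 3.80% of all genes) and none the higher one, with a median of -0.31. Acacb encodes the mitochondrial acetyl-CoA carboxylase whose malonyl-CoA restrains fatty acid oxidation. It read 7.41 on the control array and 6.16 on the BF array, 2.38-fold lower, whereas in adipose tissue it was higher by 0.71. Rdh11, a retinol dehydrogenase listed here as a known SREBP target, read 8.28 and 7.11, 2.25-fold lower. Acss2, which makes acetyl-CoA from acetate in the cytosol, read 8.91 and 8.10, 1.76-fold lower.

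The elongases and desaturases that shape long fatty acids formed most of the rest. Elovl5 read 11.44 and 10.97, Elovl6 read 9.24 and 8.78, and Fads2 read 11.81 and 11.36, with differences of -0.47, -0.46 and -0.45. Pgd, an NADPH-making enzyme of the pentose phosphate pathway, differed by -0.49. The central enzymes lay between the thresholds. Acly, which splits citrate to acetyl-CoA, differed by -0.33, Fasn, the fatty acid synthase, by -0.28, and Scd1, the stearoyl-CoA desaturase, by -0.18. Srebf1, the gene of SREBP1, was the only one of the 19 above 0, reading 8.21 on the control array and 8.44 on the BF array. Mlxipl, the gene of ChREBP, differed by -0.02.

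Lipid droplet and fat storage genes had 6 of 13 members past the lower threshold (46.2%, against 3.80% of all genes). None of the 13 passed the higher one, and the median was -0.35. Cidec, which fuses droplets into larger ones and is typical of fatty liver, read 7.13 on the control array and 5.34 on the BF array, 3.44-fold lower. In adipose tissue the same gene differed by 0.11. G0s2, an inhibitor of the lipase ATGL, read 8.22 and 7.45, and Plin3, a droplet coat protein gene, read 7.17 and 6.54. Pparg, the nuclear receptor gene that drives fat storage, read 6.47 and 5.92, and Cd36, a fatty acid transporter gene, read 8.93 and 8.47. Fitm1, whose product helps droplets to bud from the ER, differed by -0.41. Plin2, the main droplet coat of hepatocytes, read 10.06 and 9.71, a difference of -0.35 that stayed inside the threshold. Cidea and Plin4 did not meet the rule. The lipase gene Pnpla2, which encodes ATGL, differed by -0.05.

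The glycerolipid synthesis and fatty acid oxidation lists had medians near that of all genes. None of 17 glycerolipid genes passed a threshold, and the median was -0.02. Gpam, the mitochondrial acyltransferase that starts triglyceride synthesis, was the furthest of them at -0.36. Lpin2 depended on its probe set, since the brighter one read 9.86 and 9.88 and the other 7.26 and 6.25. Of 25 genes of PPARα and fatty acid oxidation 4 were lower (16%, against 3.80% of all genes) and none higher. The median of the 25 was -0.03. The 4 lower genes were Acot2 (-0.52), Crat (-0.49), Cpt1a (-0.42) and Vnn1 (-0.41). Cpt1a, the gate of fatty acid entry into mitochondria, read 10.79 and 10.37, while Cyp4a14, a sensitive PPARα target, read 10.90 and 10.96.

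**Figure D2:**
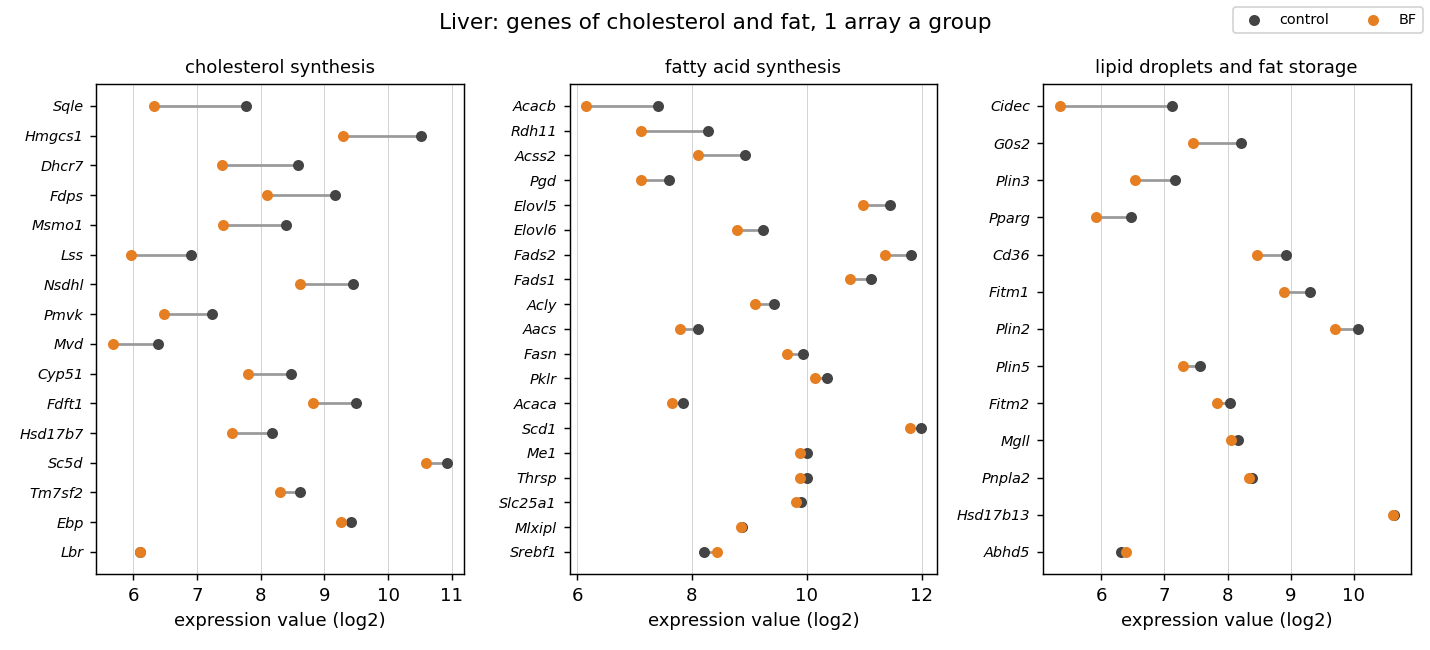
Log2 expression values of each gene on the control array (grey points) and the BF array (orange points) in liver, 1 row a gene, for 16 genes of cholesterol synthesis, 19 of fatty acid synthesis and 13 of lipid droplets and fat storage, sorted by difference. The BF point lies left of the control point for most genes, widest for Cidec, Sqle and Acacb.

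Of the bile acid genes 3 passed a threshold. Cyp7a1 encodes the rate-limiting enzyme of the classical route from cholesterol, and Cyp8b1 the 12α-hydroxylase that makes cholic acid. Cyp7a1 read 10.65 on the control array and 9.61 on the BF array, 2.06-fold lower. Cyp8b1 read 9.95 and 8.76, 2.28-fold lower. Cyp39a1, an oxysterol 7α-hydroxylase, stood on the other side with 6.49 and 7.23, 1.67-fold higher. Cyp7b1 of the alternative route read 8.89 and 9.21, a difference of 0.32, and Cyp27a1 differed by -0.01. Over the 17 genes of bile acid synthesis and conjugation 1 was higher (5.88%, against 3.09% of all genes). Lower were 2 of the 17 (11.8%, against 3.80% of all genes), and the median was 0.00.

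None of 16 genes of bile acid transport and FXR signalling passed a threshold, against 3.09% of all genes higher and 3.80% lower. Abcb11, the bile salt export pump, differed by 0.20, and Slc10a1, the uptake carrier of the sinusoidal side, by -0.12. Nr1h4, the gene of the bile acid receptor FXR, differed by -0.04, and Nr0b2, its target SHP that represses Cyp7a1, read 6.77 and 6.96. Aqp8, a water channel of hepatocytes, read 7.83 and 6.67, 2.23-fold lower.

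Drug-oxidizing and conjugating enzymes had members past both thresholds. Of 26 cytochromes P450 of families 1 to 3, 4 were higher (15.4%, against 3.09% of all genes) and 2 lower (7.69%, against 3.80%), 17 were above 0, and the median was 0.17. Cyp2c37, an arachidonic acid epoxygenase, read 9.31 on the control array and 10.02 on the BF array, 1.64-fold higher. Cyp3a11, the main PXR target of mouse liver, read 7.81 and 8.49, 1.61-fold higher. Cyp1a2 and Cyp2b9 differed by 0.44 and 0.40. The lower ones were Cyp3a25 (-0.55) and Cyp2c38 (-0.40). Their receptors stayed within the thresholds, with 0.12 for Nr1i3 (CAR) and 0.08 for Nr1i2 (PXR). Members of the Cyp2c and Cyp3a families are close in sequence, and RNA of one may reach the probes of another.

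Among glutathione transferases and NRF2 targets 3 of 20 were higher (15%, against 3.09% of all genes) and 2 lower (10%, against 3.80%). The median was 0.02. Gsta4, which clears 4-hydroxynonenal, a product of lipid peroxidation, read 7.56 and 8.58, 2.02-fold higher, and was also higher in adipose tissue (0.74). Gstp1 and Gstp2, near-identical pi-class transferases, read 11.13 and 11.72, and 9.31 and 9.94. The lower members were Gstm2 and Gstm7, both at -0.38. Glucuronosyl and sulfotransferases had 3 of 13 higher (23.1%, against 3.09% of all genes), none lower and a median of 0.18. The higher ones were Ugt2b35 (0.47), Ugt3a1 (0.40) and Sult1d1 (0.39). Osgin1, an oxidant-responsive gene, read 8.01 and 8.60.

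Steroid-metabolizing genes gave some of the largest single differences. Hsd17b6, which converts androgen metabolites and retinoids, read 8.75 on the control array and 9.90 on the BF array, 2.22-fold higher. Cyp17a1, the 17α-hydroxylase of steroid synthesis that mouse liver also expresses, read 8.46 and 6.98, 2.79-fold lower. In adipose tissue Cyp17a1 read 5.64 and 2.93. Of 13 genes with male-biased expression in mouse liver 1, Hsd3b5, was higher (7.43 and 7.96) and none was lower. Of 5 female-biased genes Cyp2b9 was higher and Cyp17a1 lower. Over all genes 3.09% were higher and 3.80% lower.

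Acute phase genes held the largest differences of the liver. Of 22 that met the rule 11 passed the lower threshold (50%, against 3.80% of all genes). None of the 22 passed the higher one, and the median was -0.36. Saa2, a serum amyloid A that rides on HDL in inflammation, read 11.73 on the control array and 6.43 on the BF array, 39.6-fold lower. Lcn2, lipocalin 2, which captures bacterial siderophores, read 9.0 and 5.13, 14.7-fold lower. Orm2, an α1-acid glycoprotein gene, read 10.24 and 6.39, 14.4-fold lower. Apcs, serum amyloid P and a major acute phase protein of mice, read 8.22 and 6.38, 3.58-fold lower. These 4 genes stood apart from the next, Fgl1, the gene of a fibrinogen-like liver protein, at -0.83.

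The remaining acute phase genes were lower by smaller amounts or near 0. Steap4, a metalloreductase gene, differed by -0.66 and Serpina3n, an antichymotrypsin, by -0.61. Orm1 (-0.52), Itih3 (-0.44), Lrg1 (-0.42) and Lbp (-0.41) completed the 11. Hp and Hpx, which bind free hemoglobin and heme, differed by -0.31 and -0.26. Crp, which is only a weak acute phase gene in mice, read 10.77 and 10.85, and Saa4, the constitutive serum amyloid, read 11.60 and 11.54. Hamp, the gene of the iron hormone hepcidin and an IL-6 target, read 12.19 and 12.31. The 6 negative acute phase genes, which include Alb and Ttr, lay between -0.07 and 0.06. Each of these values rests on 1 pool of 10 mice a group.

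Signalling genes upstream of the acute phase were mostly close to 0. Of 8 genes of IL-6 and STAT3 signalling that met the rule, 1 was higher (12.5%, against 3.09% of all genes). This was Il1r1, the IL-1 receptor gene, with 7.48 and 7.98. Stat3 differed by -0.25 and Il6st, the shared receptor chain gp130, by -0.11. Socs3, a feedback gene of this route, did not meet the rule. Myd88, the adaptor of Toll-like and IL-1 receptors, read 6.34 and 5.86. It was the 1 of 4 genes of the LPS and NF-κB list past a threshold (25%, against 3.80% of all genes lower). In the ileum Saa2, which read under 5 on both arrays there, and Lcn2 were higher, by 0.61 and 0.50, and Lcn2 was higher by 0.93 in adipose tissue.

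Both metallothionein genes were far lower, and the zinc transporters were not. Metallothioneins are small cysteine-rich proteins that bind zinc and copper, and their genes respond to metals, glucocorticoids and inflammation. Mt2 read 9.72 on the control array and 6.66 on the BF array, 8.36-fold lower. Mt1 read 9.28 and 7.15, 4.39-fold lower. The zinc importer genes Slc39a14, Slc39a8 and Slc39a4 differed by 0.00, 0.00 and -0.15. In adipose tissue Mt2 and Mt1 differed by -0.26 and -0.08, and in the ileum by -0.02 and -0.05. Other glucocorticoid targets stayed between the thresholds, with Tsc22d3 at -0.11, Per1 at -0.11 and Tat at 0.01.

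The promoters of the pair are shown because they carry metal response elements, the sites of the zinc-sensing factor MTF-1. Sequences are from RefSeq (GRCm38.p6, plus strand), chr8:94172368-94172617 for Mt2 (bases -250 to -1) and chr8:94178989-94179088 for Mt1 (bases -100 to -1), with the letters TGCGCNC or TGCACNC on either strand in capitals.
Mt2: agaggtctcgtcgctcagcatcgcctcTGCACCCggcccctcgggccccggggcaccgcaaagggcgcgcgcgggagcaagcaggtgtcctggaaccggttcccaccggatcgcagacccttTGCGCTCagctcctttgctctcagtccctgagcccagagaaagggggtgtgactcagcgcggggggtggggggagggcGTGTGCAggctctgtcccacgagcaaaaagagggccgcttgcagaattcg
Mt1: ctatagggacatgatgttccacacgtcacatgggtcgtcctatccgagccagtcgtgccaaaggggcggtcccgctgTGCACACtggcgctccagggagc
In its whole 300-base window Mt2 held 4 matches, 3 of them in the stretch printed, and Mt1 held 3, of which 1 is printed. At least 3 such matches were found in 1.97% of all 32851 windows, and at least 1 in 25.7%. The 7 letters are short, and a match is no sign of binding.

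Interferon-stimulated genes had members past the lower threshold only. Of 17 that met the rule 6 passed the lower threshold (35.3%, against 3.80% of all genes). None of the 17 passed the higher one, and the median was -0.32. Over the 7 of them with a mean of at least 7 the median was -0.14. Usp18, an ISG15 protease that damps interferon signalling, read 6.70 on the control array and 5.64 on the BF array, 2.07-fold lower. Stat2, part of the interferon-activated complex ISGF3, read 7.39 and 6.73. Gbp7, a guanylate-binding protein gene, read 6.71 and 6.06. Ifih1, the gene of the RNA sensor MDA5, differed by -0.49, Herc6 by -0.42 and Lgals3bp by -0.40. Gbp10, outside the list and close in sequence to other Gbp genes, read 8.46 and 7.50, 1.93-fold lower. Psmb8 and Bst2 were above 0, at 0.26 and 0.20. The list's median was 0.18 in the ileum and 0.12 in adipose tissue, and Usp18 differed there by 0.55 and 0.35.

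Interferon acts on such genes through GAAA repeats, so 3 promoters with a match to GAAANNGAA on either strand (capitals) are printed from RefSeq, GRCm38.p6. They are chr3:142530236-142530335 (Gbp7, plus strand), chr11:58199456-58199555 (Igtp, plus strand) and chr2:62646256-62646405 (Ifih1, minus strand), each ending at base -1.
Gbp7: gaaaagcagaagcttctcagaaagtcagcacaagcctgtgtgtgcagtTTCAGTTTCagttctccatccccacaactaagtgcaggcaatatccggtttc
Igtp: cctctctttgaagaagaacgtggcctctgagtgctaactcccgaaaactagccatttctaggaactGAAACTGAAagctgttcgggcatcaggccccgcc
Ifih1: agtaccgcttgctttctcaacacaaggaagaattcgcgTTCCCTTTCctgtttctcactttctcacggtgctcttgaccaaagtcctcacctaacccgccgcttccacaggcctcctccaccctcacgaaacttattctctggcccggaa
The matches began at -52, -34 and -112. Of 11 listed genes with a window 6 held the letters in their best window, against 8.56% of all windows counted singly, an unlike measure. Bst2, which was not lower, held 2 matches, and Herc6 and Lgals3bp held none.

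**Figure D3:**
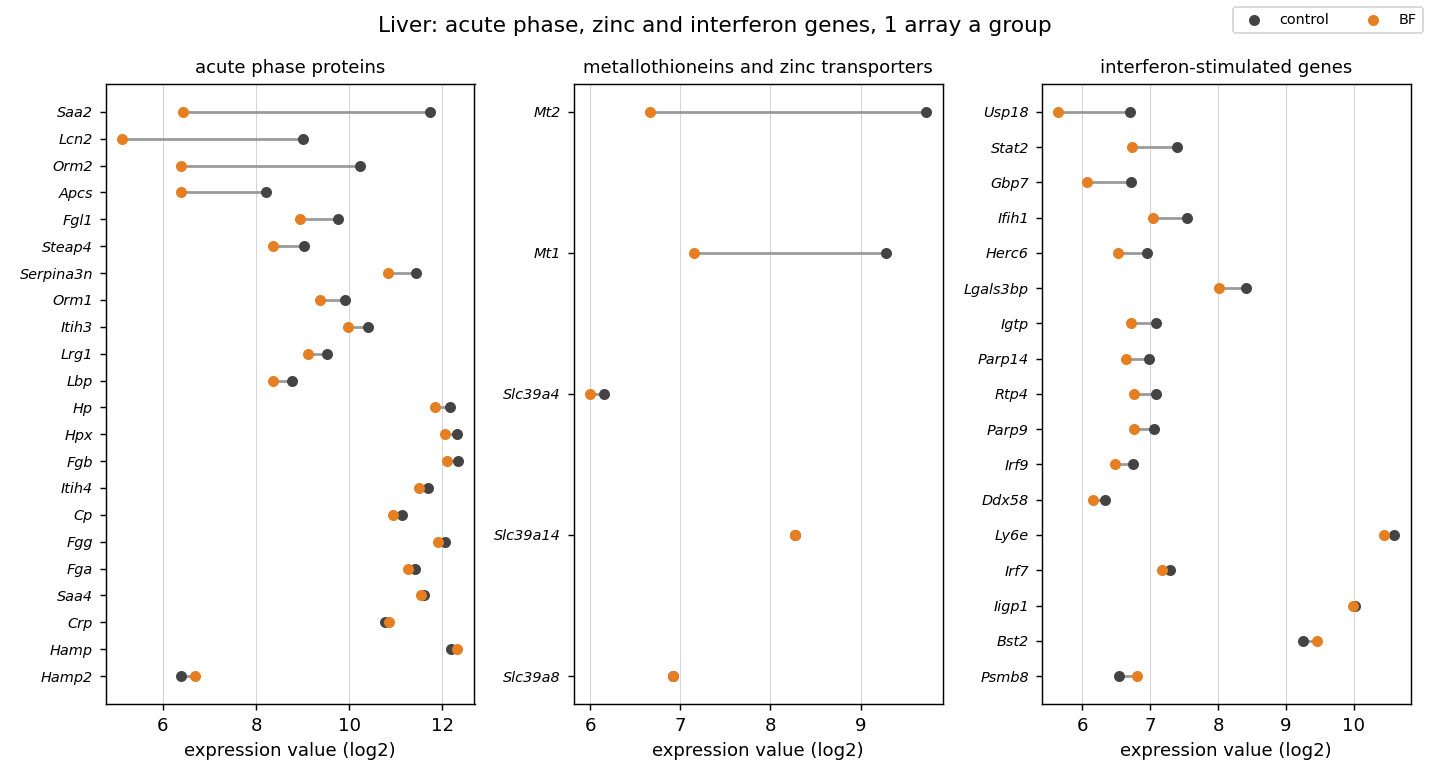
Log2 expression values of each gene on the control array (grey points) and the BF array (orange points) in liver, 1 row a gene, for 22 acute phase genes, 5 metallothionein and zinc transporter genes and 17 interferon-stimulated genes, sorted by difference. Saa2, Lcn2, Orm2, Mt2, Mt1 and Apcs have the widest gaps, and genes such as Hamp and Crp have almost none.

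Secreted and hormone-related genes differed in both directions. Apoa4, an apolipoprotein that follows hepatic fat, read 11.50 on the control array and 10.51 on the BF array, 1.98-fold lower. Pltp, the phospholipid transfer protein of HDL, read 9.16 and 8.27, 1.85-fold lower. Angptl8, an insulin-induced inhibitor of lipoprotein lipase, read 6.44 and 7.19, 1.69-fold higher, and Sort1, a sorting receptor for apoB, read 5.96 and 6.51. The other 15 of 19 lipoprotein genes lay between the thresholds, and the median was -0.02. Each side held 10.5% of the 19, against 3.09% of all genes higher and 3.80% lower. Igfbp2, an IGF-binding protein gene, read 8.23 and 8.88, while Igfbp1, which insulin represses, read 7.53 and 6.94. Inhbe, the gene of the hepatokine activin E, read 9.41 and 8.83. Foxq1, a forkhead factor gene, read 6.11 and 7.00, 1.85-fold higher. Creld2, an ER stress gene, read 6.85 and 7.48, and was the 1 of 19 ER chaperone genes past a threshold.

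Some core programs of the liver had 1 gene or none past a threshold. None of 15 clock genes, 8 urea cycle genes, 30 proteasome genes or 6 heat shock genes passed one. Over all genes 3.09% were higher and 3.80% lower, so none or 1 is near that share in the shorter lists. Of the same lists Hspa1b (5.51 and 6.33) and Ass1 (5.55 and 4.76) did not meet the rule. Among 35 complement and coagulation genes C4b alone passed, at -0.47. Of 23 genes of glycolysis, gluconeogenesis and glycogen Pfkfb2 alone passed, at -0.41, and the median was -0.07. G6pc and Pck1, which encode control enzymes of glucose output, differed by -0.30 and 0.01. Of 20 amino acid breakdown genes Got1, the cytosolic aspartate aminotransferase, alone passed, with 9.51 and 8.82. Methionine and one-carbon metabolism differed from these, with 2 of 10 genes lower (20%, against 3.80% of all genes), Nnmt (-0.50) and Bhmt2 (-0.48), 8 of 10 below 0 and a median of -0.15.

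**Figure D4:**
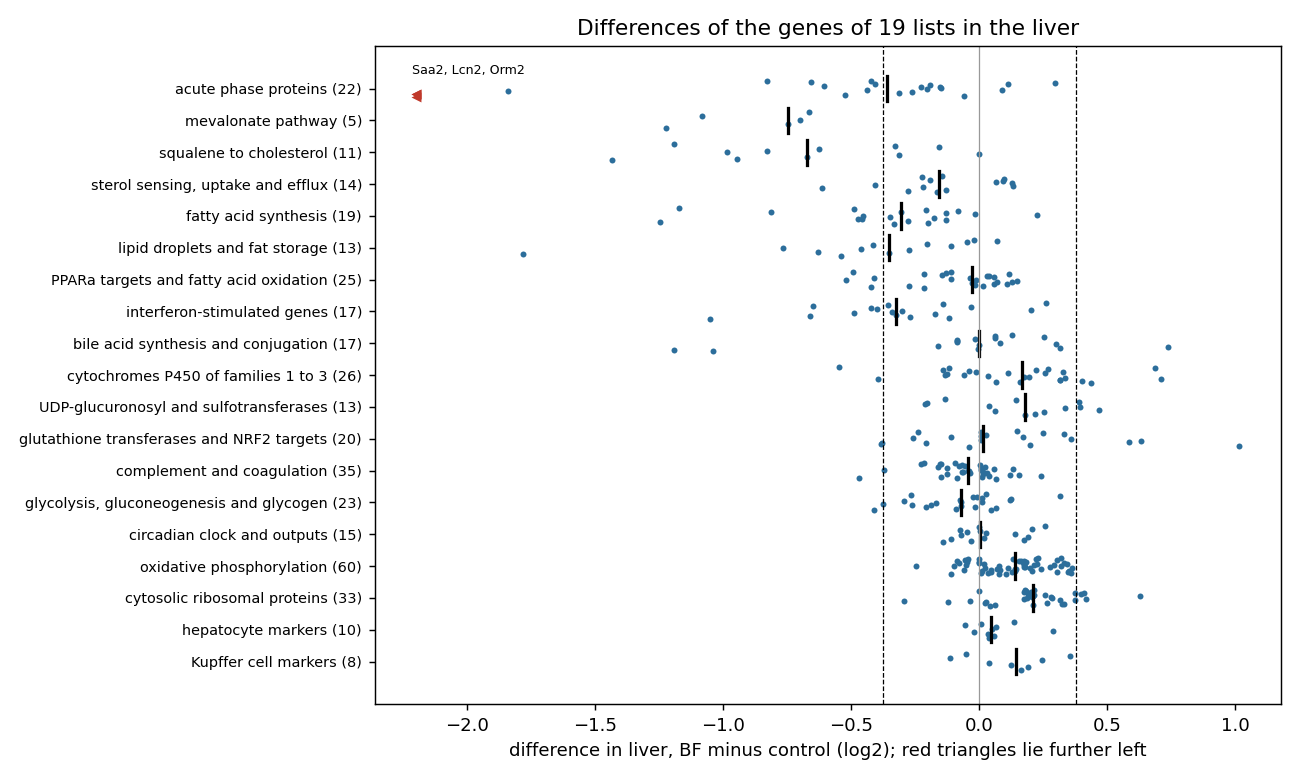
Differences in liver (log2, BF minus control, horizontal axis) of the genes of 19 lists, 1 point a gene, with the number of genes in brackets, a black bar at each list's median and dashed lines at 1.3 fold and 0.77 fold. The red triangles at the left edge are Saa2, Lcn2 and Orm2, which lie further out. Both cholesterol synthesis lists have their medians beyond the lower line, and those of the clock and complement lists lie near 0.

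Small nucleolar RNAs formed the main group on the higher side. These short RNAs guide the chemical modification of ribosomal RNA and are mostly cut from introns of other genes. The class was picked out after its values were seen. Of 46 snoRNA genes 26 were higher and none lower, against 3.09% and 3.80% of all genes, and the median was 0.47. In the ileum the same 46 had a median of -0.08, with 1 higher and 4 lower, against 2.24% and 1.24% of all genes. In adipose tissue they had a median of -0.06, with 1 higher and 8 lower, against 5.35% and 6.02% of all genes. Snord49b read 8.52 on the control array and 9.57 on the BF array, and Snora31 read 6.96 and 7.82. Both classes took part, with 17 of 30 C/D box and 9 of 16 H/ACA box genes higher. The study gives no measure of how well short RNAs were recovered in each pool. With 1 pool a group, recovery and expression cannot be told apart.

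Host genes did not differ alike. Of the 46 snoRNAs 19 lay inside a gene that also met the rule, and 12 of these 19 were higher, with a median of 0.47. Their 19 hosts had a median of 0.06, and 1 was higher and 1 lower. Snord111 read 5.74 and 6.58, while its host Sf3b3, a splicing factor gene, read 6.86 and 6.65. Snord69 and its host Gnl3, a nucleolar GTPase gene, both differed in the same direction, by 0.60 and 0.56. Other short RNAs were mixed. Of small Cajal body guide RNAs 3 of 4 (Scarna6, Scarna10 and Scarna2) were higher, as were both Y RNAs (Rny1 and Rny3). Of 4 snRNA genes 1 was higher and none lower, and neither of 2 RNase P RNA genes passed a threshold. Of 18 miRNA genes none was higher and 2 were lower, with a median of -0.18. Over all genes 3.09% were higher and 3.80% lower.

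Genes of ribosomal and respiratory chain proteins also leaned higher in the liver. Of 33 cytosolic ribosomal protein genes 4 were higher (12.1%, against 3.09% of all genes), namely Rpl9, Rpl38, Rps27l and Rps24. None was lower, 29 were above 0 and the median was 0.21. Rpl9 read 6.38 and 7.01 in liver but differed by -0.63 in adipose tissue. There 8 of the 33 were lower, against 6.02% of all genes in that organ. Of 60 respiratory chain genes none passed a threshold, 46 were above 0 and the median was 0.14, against medians of -0.05 in the ileum and -0.10 in adipose tissue. Over all genes 47.8% were above 0. Over all protein-coding genes the difference also varied with gene span. The fifth of protein-coding genes with the shortest span, up to 9.12 kb, had a median of 0.03 and the fifth with the longest, from 71.1 kb, had -0.04. Whether span had a relation to the differences of the ribosomal and respiratory lists was not tested.

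**Figure D5:**
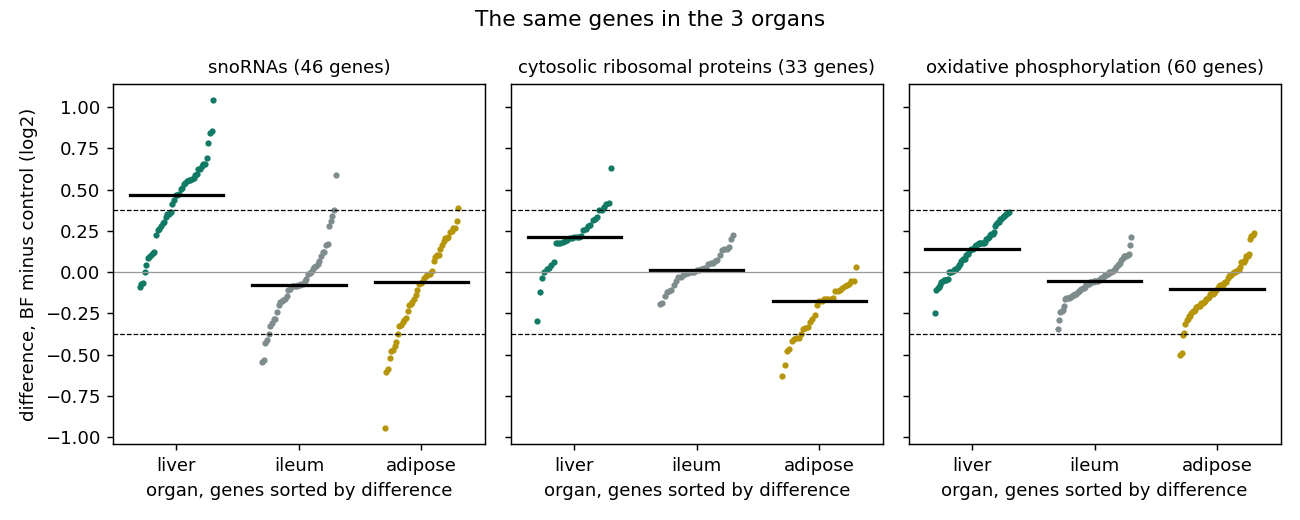
Differences (log2, BF minus control, vertical axis) of 46 snoRNA genes, 33 cytosolic ribosomal protein genes and 60 respiratory chain genes in liver, ileum and adipose tissue, 1 point a gene sorted within each organ, with a black bar at the median and dashed lines at 1.3 fold and 0.77 fold. The liver medians of 0.47, 0.21 and 0.14 lie above those of the other organs.

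Markers of other liver cells that met the rule stayed between the thresholds, except Lyz2. Of 13 Kupffer cell markers 8 met the rule, 6 of these 8 were above 0 and the median was 0.14. Clec4f, restricted to Kupffer cells, read 7.68 and 7.84. Marco, a scavenger receptor gene of the same list that did not meet the rule, read 4.92 and 6.09. Lyz2, lysozyme of macrophages and neutrophils, was the highest protein-coding gene, with 6.85 on the control array and 8.01 on the BF array, 2.23-fold higher. The other 4 monocyte and macrophage markers that met the rule, Cd68, Fcer1g, Cybb and Ctss, lay between -0.09 and 0.04. None of 13 neutrophil markers met the rule and none read above 4.05 on either liver array. Mpeg1, a pore-forming protein gene of macrophages, and Lgals1, the galectin-1 gene, were lower, with 7.67 and 6.81, and 7.71 and 6.85.

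Sinusoidal endothelial markers had a median of 0.12 over 13 genes, 9 of them above 0, and stellate cell markers a median of -0.07 over 7, with none past a threshold. Along the liver lobule, 2 of 8 periportal markers were higher (25%, against 3.09% of all genes), Cdh1 (0.41) and Etnppl (0.40). The median of the 8 was 0.26. Of 10 pericentral markers Cyp1a2 was higher and Rhbg lower (0.44 and -0.50), and the median was -0.15. Glul, the glutamine synthetase of the innermost pericentral cells, read 11.05 and 10.90. Cyp2e1, the pericentral P450, read 12.60 and 12.59.

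The genes furthest from 0 in liver were chosen on their liver values, so smaller values in the other organs follow from the choice and are given as a description. Of the 30 protein-coding genes furthest on the lower side, 9 were also past the lower threshold in adipose tissue and 1 in the ileum, and 2 and 4 were past the higher one. Of all 4919 genes 6.02% were lower and 5.35% higher in adipose tissue, and 1.24% lower and 2.24% higher in the ileum. The genes of cholesterol synthesis among these 30 were Sqle, Hmgcs1, Dhcr7, Fdps, Msmo1, Lss and Nsdhl, with adipose differences of -0.75, -0.37, -0.58, -0.45, -0.54, -0.47 and -0.41, of which that of Hmgcs1 stayed within the threshold. Of the 30 furthest on the higher side, 4 were past the higher threshold in adipose tissue and none in the ileum, and 5 and 1 were past the lower one. Gsta4 and Gstp1 were higher in adipose tissue too, by 0.74 and 0.51. Differences between organs were not tested.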

How the data were processed

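Total RNA of 10 mice a group was mixed in equal amounts, and 1 pool per organ and diet was labelled and hybridized to a Mouse Gene 2.0 ST array. Per the labels and the methods, the authors made the deposited log2 expression values with Affymetrix Expression Console 1.3 and its default robust multichip analysis, which corrects background, equalizes the distributions of the arrays and summarizes probes. The table held 41345 probe sets on 6 arrays. Of these, 23521 had 1 gene symbol in the platform's probe table, 1820 several and 16004 none. Symbols were updated through their gene numbers to RefSeq.

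Differences were taken between the 2 liver arrays with Python 3.11.15, pandas 2.3.3 and numpy 2.4.6, after tests on simulated data. The precision is limited by 1 array a group, so no test was made. Genes named are the 30 furthest protein-coding genes each way and members of 63 fixed gene lists that met the rule, and the exceptions, small RNAs among them, are named as such or were chosen after their values were seen. Members and lists were chosen with earlier results of these data known. Alternatives covered scaling, the minimum signal, the threshold, the probe set of a gene and gene type. Lowess centring used a span of 0.3 (statsmodels 0.14.6). Probes of close family members may share RNA.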

Additional observations from a re-analysis of the deposited data

Results flagged for a closer look

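Among the 30 protein-coding genes furthest from 0 in each direction in liver, 10 passed the opposite threshold in another organ. Of all 4919 genes 5.35% were higher and 6.02% lower in adipose tissue, and 2.24% higher and 1.24% lower in the ileum. With 1 array a group the difference between organs was not tested, and no explanation is weighed. On the log2 scale, Saa2 differed by -5.31 in liver and was higher by 0.61 in the ileum. Lcn2 differed by -3.88 in liver and was higher by 0.50 in the ileum and 0.93 in adipose tissue. Acacb differed by -1.25 in liver and was higher by 0.71 in adipose tissue. Usp18 and Gbp10 differed by -1.05 and -0.95 in liver and were higher by 0.55 and 0.42 in the ileum. In the other direction, Lyz2 was higher by 1.16 in liver and differed by -0.42 in adipose tissue. Pgap1, a gene of GPI anchor remodelling, was higher by 0.69 in liver and differed by -0.42 in the ileum and -1.29 in adipose tissue. Nat8f1, Rpl9 and Slc6a6, the taurine transporter gene, were higher by 0.64, 0.63 and 0.54 in liver and differed by -0.50, -0.63 and -0.58 in adipose tissue. Saa2 in the ileum and Nat8f1 in adipose tissue read under 5 on both arrays.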

How the results depend on the processing

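The counts of 152 higher and 187 lower genes kept within 1.5 times under all 4 other scalings, both other choices of probe set, the protein-coding restriction, and 2 alternatives chosen after seeing the data (choosing the probe set before the minimum, and leaving out small RNAs). Of these, quantile normalization of the 6 arrays left 6486 genes, with 177 higher and 202 lower. With a minimum mean of 5 the counts were 288 and 340 of 7503 genes. With 7 they were 84 and 107 of 2703 genes, and with no minimum 1355 and 1325 of 22180. The number of genes changed along with these counts. At 1.5 fold 34 genes were higher and 61 lower, and at 2 fold 4 and 18. Under the alternatives other than the thresholds of 1.5 and 2 fold, none of the 60 furthest genes changed direction or came back inside the 1.3 and 0.77 fold thresholds wherever it was kept. Of 50 list medians, 3 moved by over 0.1 on the log2 scale. Squalene to cholesterol was -0.57 after quantile normalization of the 6 arrays, and with a minimum of 7 the interferon-stimulated genes were at -0.14 (7 genes) and the glutathione transferases at 0.16. The cause was not tested. No paired analysis was possible because each group held 1 array, and no array could be left out. The study has no replicate, so how much mice, pools or hybridizations differ is unknown.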

Other observations

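Among longer non-coding and other genes, named here after their values were seen, 3 of 33 lncRNA genes were lower and 2 were higher. Over all genes 3.80% were lower and 3.09% higher. Neat1, the scaffold RNA of nuclear paraspeckles, read 7.87 on the control liver array and 7.28 on the BF array, and C730036E19Rik read 9.14 and 8.51. Of 18 miRNA genes Mir680-2 (7.50 and 6.89) and Mir505 (6.85 and 6.32) were lower and none was higher. Probe sets of miRNA genes need not report the mature miRNA. Adh6-ps1, a transcribed pseudogene of the alcohol dehydrogenases, read 8.03 and 8.71.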
